A study of Canis lupus familiaris with 12 samples.

Results

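Transcript levels of 6 genes that bind metals or remove reactive oxygen species were followed across 4 groups of Mi/CMM1, a cell line derived from an oral melanoma of a dog. The genes were the metallothioneins MT1E and MT2 (MT2A in the RefSeq gene table), the ferritin light chain FTL, the cytosolic thioredoxin reductase TXNRD1, the copper-zinc superoxide dismutase SOD1 and catalase, CAT. They were chosen by name, as every probe whose identifier is a dog RefSeq transcript of 1 of them. All 6 were on the array, out of 832 genes that could be named, with 10 probes in all: 4 for TXNRD1, 2 for FTL and 1 for each of the others. Each of the 10 gave a signal well above background on every one of the 12 arrays, so none was lost to the filter on dim probes. No member spot carried an outlier flag (0 on any array) and none was saturated.

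Untreated cells were set beside cells exposed to 1 of 3 nonsteroidal anti-inflammatory drugs, piroxicam, carprofen and robenacoxib, which block cyclooxygenase enzymes. Each group had 3 one-colour arrays. Sample labels and series design give 116 µM piroxicam, 779 µM carprofen and 156 µM robenacoxib for 6 h, each described as the drug's half-maximal inhibitory concentration. The treatment protocol instead pairs piroxicam with 779 µM and carprofen with 116 µM, and gives 24 h; this conflict was not settled, and in either version the drugs were not at 1 dose. For the controls the labels name neither a drug nor a solvent. The replicates are described as biological, and all come from 1 cell line. The p-values therefore measure the spread between the arrays of these cultures, in which culture, labelling and slide are not told apart.

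Metallothioneins are small, cysteine-rich proteins that bind zinc and copper, and their genes respond to metals, glucocorticoids and oxidative stress. Ferritin stores iron in a form that cannot feed the production of hydroxyl radicals. Superoxide dismutase turns superoxide into hydrogen peroxide, which catalase breaks down in peroxisomes. Thioredoxin reductase keeps thioredoxin reduced with electrons from NADPH, and its gene, like that of ferritin, is a known target of the stress-responsive factor NRF2.

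Levels are log2 signals relative to the 75th percentile of the same array. A negative level is a signal below that percentile, and levels of different genes are not set against each other because probes respond differently. Over all tested probes, 2 arrays of 1 group correlated at 0.9946 or more and 2 arrays from separate groups at 0.9901 or more. The melanocyte genes MITF and SLC45A2 were above background on all 12 arrays, MC1R on 8, KIT on 4 and TYR, tyrosinase, on 0. The fibroblast list was above background with all 4 of its 4 measured genes (COL1A1, COL1A2, DCN and PDGFRB), as were CD4, CD8A and VWF, while the keratinocyte gene DSG3 and the endothelial gene KDR were so on 0 arrays. The 3 controls shared slide 1 with carprofen 1; slide 2 held carprofen 2 and 3 with piroxicam 1 and 2; slide 3 held piroxicam 3 with all robenacoxib arrays. For piroxicam and robenacoxib, which had no slide in common with control, an estimate with slide as a block runs through the carprofen arrays. For carprofen against control, that estimate is the difference of carprofen 1 alone from the 3 controls on slide 1. Between robenacoxib and piroxicam it rests on piroxicam 3 alone among the piroxicam arrays.

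The outcome depended on the reference. Relative to the array, and with each gene counted on its brightest probe, 4 of the 6 genes fell with piroxicam, 6 with carprofen and 3 with robenacoxib, and none rose (limma, Benjamini-Hochberg adjusted p below 0.05; 0 higher at an unadjusted p below 0.05 as well). Over all tested probes, 16.1% were called lower and 11.9% higher with piroxicam, 19.5% and 13.3% with carprofen, and 12.6% and 9.57% with robenacoxib. When slide was a block, 2.58% of probes were called lower with piroxicam, 8.64% with carprofen and 0.388% with robenacoxib. Changes of the members were small, at most 0.28 on the log2 scale, and the median change of all probes was -0.023, -0.023 and -0.03. Relative to transcripts spiked in at labelling, the arrays shifted up by 0.175, 0.344 and 0.3, and 40% (piroxicam), 75.3% (carprofen) and 67.8% (robenacoxib) of all probes were called higher, against 2.98%, 0.25% and 0.472% lower. On that scale no member gene was called lower with any drug (0, also at an unadjusted p below 0.05), while 1, 4 and 4 were called higher. Each fall from control given below for these 6 genes is thus a fall relative to the rest of the array, with a value above 0 against the spikes.

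**Figure D1:**
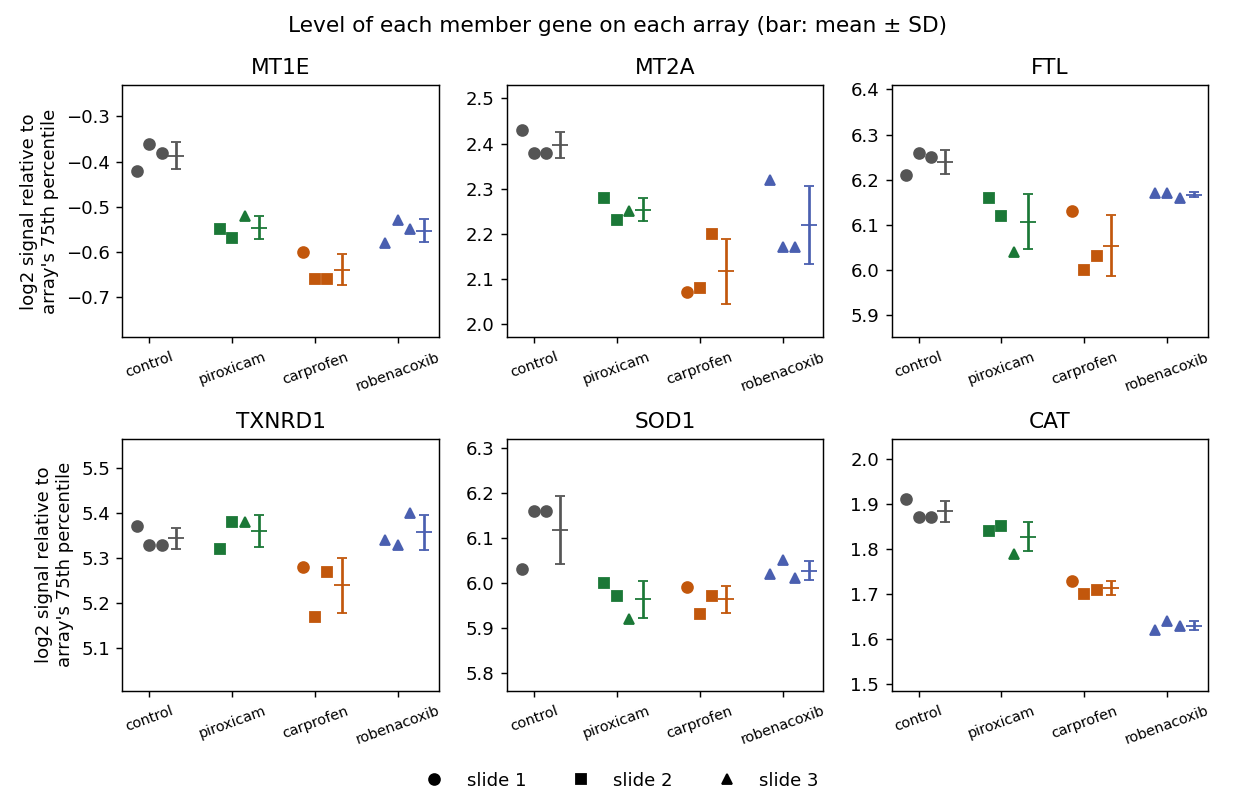
Level of each gene on each array (log2 signal minus the 75th percentile of its array; points are arrays, marker shape is the slide, bars are mean ± SD, n = 3), by group. CAT stepped down from control to robenacoxib with no overlap between any groups, and MT1E was lower on every drug-treated array than on every control array. Of all tested probes, 26.6% lay wholly below control with piroxicam, 27.5% with carprofen and 25% with robenacoxib.

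MT1E separated every drug group from control. Its level was -0.42, -0.36 and -0.38 in controls 1 to 3, against -0.55, -0.57 and -0.52 with piroxicam. It was -0.60, -0.66 and -0.66 with carprofen and -0.58, -0.53 and -0.55 with robenacoxib. No treated array reached the control range, and the carprofen arrays were the lowest. Of all tested probes, 26.6% lay wholly below control with piroxicam, 27.5% with carprofen and 25% with robenacoxib. These shares also apply to each separation from control given below. The share below control with every drug at once was not counted. Relative to the array it fell by 0.16 with piroxicam (SE 0.03, adjusted p = 0.00257), by 0.25 with carprofen (SE 0.03, adjusted p = 0.000189) and by 0.17 with robenacoxib (SE 0.03, adjusted p = 0.00298). Between 8% (carprofen) and 22.7% (piroxicam) of all tested probes had a lower log2 difference. Fitted with slide as a block, the differences were -0.12, -0.21 and -0.15, and only that of carprofen was still called. Against the spikes they were 0.01, 0.09 and 0.13.

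MT2 followed with a wider spread inside the drug groups. It stood at 2.43, 2.38 and 2.38 in the controls and at 2.28, 2.23 and 2.25 with piroxicam. With carprofen it stood at 2.07, 2.08 and 2.20, and with robenacoxib at 2.32, 2.17 and 2.17. Every treated array lay below the controls, while carprofen 3 and robenacoxib 1 lay nearer to them than the other arrays of their groups. The fall relative to the array was 0.28 with carprofen (SE 0.05, adjusted p = 0.0019), where 5.98% of tested probes had a lower difference. It fell by 0.15 with piroxicam (SE 0.05, adjusted p = 0.0473) and by 0.18 with robenacoxib (SE 0.05, adjusted p = 0.0264). The carprofen call held when slide was a block (-0.33), as did that of MT1E. Both block estimates compare carprofen 1 alone, at 2.07 for MT2, with the 3 controls on slide 1. The other 2 calls of MT2 were lost with the block (-0.22 and -0.25); the piroxicam call was also lost without any 1 of its 6 arrays, and the robenacoxib call without control 1, 2 or 3 or robenacoxib 2 or 3. Against the spikes the MT2 differences were 0.03, 0.06 and 0.12.

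MT1E and MT2 are neighbours in the RefSeq gene table, followed by a long noncoding RNA gene, MT-III and MT4. Of these neighbours MT4, a metallothionein known from stratified epithelium, had a tested probe, at -4.04 ± 0.10 (SD, n = 3) in controls. Its differences of -0.03, 0.01 and -0.07 did not pass the test with any drug. Values of the other neighbours are not given. The ratio of MT2 to MT1E overlapped control with each drug, at mean log2 differences of 0.01, -0.03 and -0.01. Metallothionein transcripts are alike in sequence, and whether either probe also binds the other transcript was not tested.

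FTL, read by 2 probes that moved together, fell with piroxicam and carprofen. The brighter probe stood at 6.21, 6.26 and 6.25 in controls and at 6.16, 6.12 and 6.04 with piroxicam. It stood at 6.13, 6.00 and 6.03 with carprofen and at 6.17, 6.17 and 6.16 with robenacoxib. All treated arrays were below the lowest control, by little in the robenacoxib group. The fall was 0.14 with piroxicam (SE 0.04, adjusted p = 0.0388) and 0.19 with carprofen (SE 0.04, adjusted p = 0.00771), and the second probe gave -0.12 and -0.19. With robenacoxib the difference was -0.08 (SE 0.04, adjusted p = 0.239). The values with slide as a block were 0.02, -0.11 and 0.15 and none was called, and the piroxicam call was lost without control 1, 2 or 3 or piroxicam 2 or 3. Against the spikes FTL was higher by 0.16 with carprofen (adjusted p = 0.0251) and by 0.22 with robenacoxib (adjusted p = 0.00468).

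SOD1 gave nearly the same pattern as FTL. Its level was 6.03, 6.16 and 6.16 in controls and 6.00, 5.97 and 5.92 with piroxicam. With carprofen it was 5.99, 5.93 and 5.97, and with robenacoxib 6.02, 6.05 and 6.01. Control 1 was the lowest control and lay inside the robenacoxib range, while piroxicam and carprofen did not overlap control. SOD1 fell by 0.15 with piroxicam (SE 0.04, adjusted p = 0.0213) and by 0.15 with carprofen (SE 0.04, adjusted p = 0.0191), and differed by -0.09 with robenacoxib (SE 0.04, adjusted p = 0.14). These were -0.08, -0.12 and 0.02 in the fit with the slide block, with no call. The piroxicam call was lost without control 2 or 3 or piroxicam 3, the carprofen call without control 2 or 3 or carprofen 2, and a robenacoxib call appeared without control 1 (-0.14). Against the spikes SOD1 differed by 0.02, 0.19 and 0.21.

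CAT was the 1 member whose 4 groups were all apart. Its level was 1.91, 1.87 and 1.87 in controls and 1.84, 1.85 and 1.79 with piroxicam. It was 1.73, 1.70 and 1.71 with carprofen and 1.62, 1.64 and 1.63 with robenacoxib. In the order control, piroxicam, carprofen, robenacoxib no 2 groups overlapped. The share of all probes with 4 groups apart was not counted. Of all tested probes, 26.6% lay wholly below control with piroxicam, 27.5% with carprofen and 25% with robenacoxib. Likewise 23.8% lay wholly lower with carprofen than with piroxicam, 20.7% lower with robenacoxib than with piroxicam and 12.5% lower with robenacoxib than with carprofen. The fall relative to the array was 0.25 with robenacoxib (SE 0.02, adjusted p = 0.000121) and 0.17 with carprofen (SE 0.02, adjusted p = 0.000713). With piroxicam the difference was -0.06 (SE 0.02, adjusted p = 0.108). The neighbours control and piroxicam, and carprofen and robenacoxib, were therefore not separated by the test. The slide block gave differences of -0.02, -0.15 and -0.18, and only the carprofen call held; against the spikes they were 0.12, 0.18 and 0.05.

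TXNRD1 moved least, and its 4 probes did not agree. The brightest probe stood at 5.37, 5.33 and 5.33 in controls and at 5.32, 5.38 and 5.38 with piroxicam. It stood at 5.28, 5.17 and 5.27 with carprofen and at 5.34, 5.33 and 5.40 with robenacoxib. Piroxicam and robenacoxib overlapped control and carprofen lay below it. The carprofen difference of -0.11 (SE 0.04) passed with an adjusted p of 0.0492 and lost its call with slide as a block (-0.06) and without control 1, 2 or 3 or carprofen 2 or 3. The differences of 0.02 with piroxicam (adjusted p = 0.777) and 0.01 with robenacoxib (adjusted p = 0.863) had 95% intervals of -0.07 to 0.10 and -0.07 to 0.09. Probes 2 and 3 gave -0.02 and -0.05 with carprofen. Probe 2 stood at 4.97, 4.95 and 4.93 in controls and at 5.01, 5.02 and 4.99 with piroxicam, so every piroxicam array lay above control. That difference was 0.06 (95% interval 0.01 to 0.11) and was not called (unadjusted p = 0.0216, adjusted p = 0.0684). It was called higher with quantile normalization (0.11, adjusted p = 0.00514) and with normexp background correction and quantile normalization (0.16, adjusted p = 0.0108). The same held in the authors' deposited table (0.16, adjusted p = 0.0111) and against the spikes (0.23, adjusted p = 0.0017). With quantile normalization probe 2 was also called higher with carprofen (0.09, adjusted p = 0.0147) and with robenacoxib (0.08, adjusted p = 0.0369). Against the spikes it was higher by 0.32 with both carprofen and robenacoxib (adjusted p = 8.37e-05 and 0.000136). The dimmest probe, at 0.74, 0.68 and 0.68 in controls, fell by 0.23 with carprofen (adjusted p = 0.00543) and by 0.19 with robenacoxib (adjusted p = 0.0216), and differed by -0.11 with piroxicam (adjusted p = 0.123). Both calls of that probe were lost with slide as a block (-0.13 with carprofen, adjusted p = 0.144, and -0.02 with robenacoxib, adjusted p = 0.949). With piroxicam the dimmest probe was called lower with normexp and the 75th percentile (-0.30, adjusted p = 0.0244). It was also called lower with normexp and quantile normalization (-0.29, adjusted p = 0.0167) and in the authors' table (-0.29, adjusted p = 0.0261). In the last 2 settings probe 2 was called in the opposite direction. Against the spikes the brightest probe was higher with each drug, by 0.19, 0.24 and 0.31 (adjusted p = 0.0156, 0.00225 and 0.000599).

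**Figure D2:**
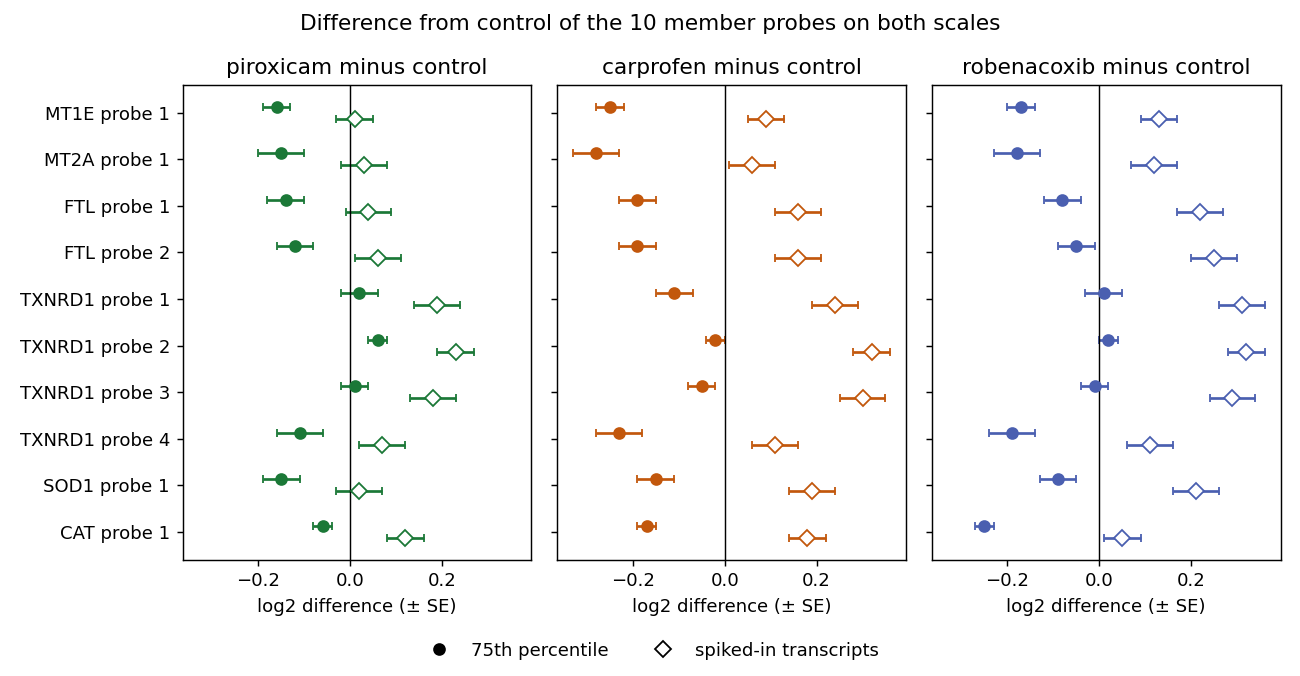
Log2 difference from control of the 10 probes with limma's SE, for each drug, relative to the 75th percentile (filled circles) and to the spiked-in transcripts (open diamonds). All probes sit higher on the spike scale; MT1E with carprofen goes from -0.25 to 0.09 and TXNRD1 probe 1 with robenacoxib from 0.01 to 0.31.

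The size of this shift was itself uneven. Over the 8 spike probes used, it ran from 0.12 to 0.24 with piroxicam, from 0.22 to 0.42 with carprofen and from 0.14 to 0.58 with robenacoxib. Within slide 1 carprofen 1 stood 0.34 above the controls. The summed signal of the fibroblast list moved in the same direction as the genes above, from 6.22 to 6.26 in controls, to 6.11 to 6.18 with piroxicam, 6.02 to 6.10 with carprofen and 6.14 to 6.16 with robenacoxib. That of the 5 measured melanocyte genes was -0.43 to -0.41 in controls, -0.50 to -0.41 with piroxicam, -0.54 to -0.49 with carprofen and -0.38 to -0.33 with robenacoxib. The part of these markers in the members' differences was not tested.

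The drug groups were also compared with each other as treated. Relative to piroxicam, carprofen was lower for 4 genes: CAT by 0.11 (SE 0.02, adjusted p = 0.00418), TXNRD1 by 0.12 (SE 0.04, adjusted p = 0.0245), MT1E by 0.09 (SE 0.03, adjusted p = 0.0259) and MT2 by 0.14 (SE 0.05, adjusted p = 0.0465). Of all probes, 18.9% were called lower in that comparison. In the fit with the slide block the CAT and MT1E calls held, at -0.14 and -0.10, and those of MT2 (-0.11) and TXNRD1 (-0.13) did not, while FTL gained one (-0.13); 15.8% of all probes were called lower in that fit. Among the arrays of the compared groups, the MT1E call was lost without piroxicam 1 or 3 or carprofen 2 or 3. The MT2 call was lost without any 1 of these arrays other than carprofen 3. The TXNRD1 call was lost without piroxicam 2 or 3 or carprofen 2. Against the spikes none of the 6 was lower (0, also unadjusted) and SOD1 was higher by 0.17 (adjusted p = 0.0239), where 41.7% of all probes were called higher and 4.23% lower.

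Between robenacoxib and piroxicam CAT was the 1 member gene called relative to the array. It was lower by 0.20 with robenacoxib (SE 0.02, adjusted p = 0.000296), where 13.2% of probes were called lower. On slide 3 alone, the 3 robenacoxib arrays (1.62 to 1.64) lay below piroxicam 3 (1.79). The call held with the slide block (-0.16, with 7.73% of probes called lower and 10.6% higher), an estimate from these same arrays of slide 3. It was lost against the spikes (-0.07). There FTL and SOD1 were called higher with robenacoxib, each by 0.19 (adjusted p = 0.0254 and 0.0219). In that setting 31.9% of all probes were called higher and 3.53% lower. Relative to the array, MT1E differed by 0.00 between these groups, with a 95% interval of -0.07 to 0.06. MT2 differed by -0.03, with an interval of -0.14 to 0.08. FTL differed by 0.06 (-0.03 to 0.15), and by 0.13 with the slide block, which passed (adjusted p = 0.0461), while its second probe gave 0.05 with that block (adjusted p = 0.466).

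Between robenacoxib and carprofen no member gene was called in either direction (0, limma), against 8.15% of all probes; at an unadjusted p below 0.05, 1 was lower and 3 were higher with robenacoxib. CAT differed by -0.08 (95% interval -0.14 to -0.03, adjusted p = 0.0595), with groups that did not overlap. The other differences were 0.09 for MT1E (0.03 to 0.15), 0.11 for MT2 (0.00 to 0.21), 0.11 for FTL (0.02 to 0.21), 0.12 for TXNRD1 (0.04 to 0.20) and 0.06 for SOD1 (-0.03 to 0.15). These intervals are not adjusted for the number of probes, and these groups share no slide.

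A ratio of 2 genes on 1 array is the same whichever single value per array is subtracted, the 75th percentile or the spikes, but it can move with background correction and quantile normalization. For 8 ratios, which were added to the design and chosen among the members without a rule, all 6 comparisons between groups were made, 48 in all. With 3 arrays against 3 no two-sided exact permutation p could be below 0.1, and no adjusted p was below 0.343. Log2 ratios are given minus their mean over the control arrays. CAT relative to TXNRD1, named here after its values were seen, was 0.00 on each control array and -0.25, -0.23 and -0.30 with robenacoxib. With piroxicam it was -0.02, -0.07 and -0.12, and with carprofen -0.09, 0.00 and -0.10. Robenacoxib lay below the other 3 groups, by 0.26 below control (exact permutation p = 0.1, adjusted p = 0.343). Each ratio uses the brightest probe of its genes, and ratios on other probes were not computed. With robenacoxib TXNRD1 probes 1 to 4 differed from control by 0.01, 0.02, -0.01 and -0.19 relative to the array. CAT relative to SOD1 gave the same picture, with -0.16, -0.17 and -0.14 for robenacoxib and 0.12, -0.06 and -0.06 for control. MT1E relative to SOD1 lay below control with carprofen (-0.10 ± 0.02, SD) and robenacoxib (-0.07 ± 0.02, SD), and FTL relative to SOD1 overlapped control with every drug. With normexp background correction and the 75th percentile, the robenacoxib differences from control were -0.39 for CAT/SOD1 (-0.16 without that correction), -0.27 for MT1E/SOD1 (-0.07), -0.21 for FTL/SOD1 (0.02) and -0.19 for CAT/TXNRD1 (-0.26), and CAT/TXNRD1 with piroxicam turned from -0.07 to 0.08. With quantile normalization, carprofen gave -0.22 for MT1E/SOD1 and -0.14 for CAT/TXNRD1 (-0.06), robenacoxib -0.32 for CAT/TXNRD1, and piroxicam 0 for CAT/SOD1 (0.10).

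**Figure D3:**
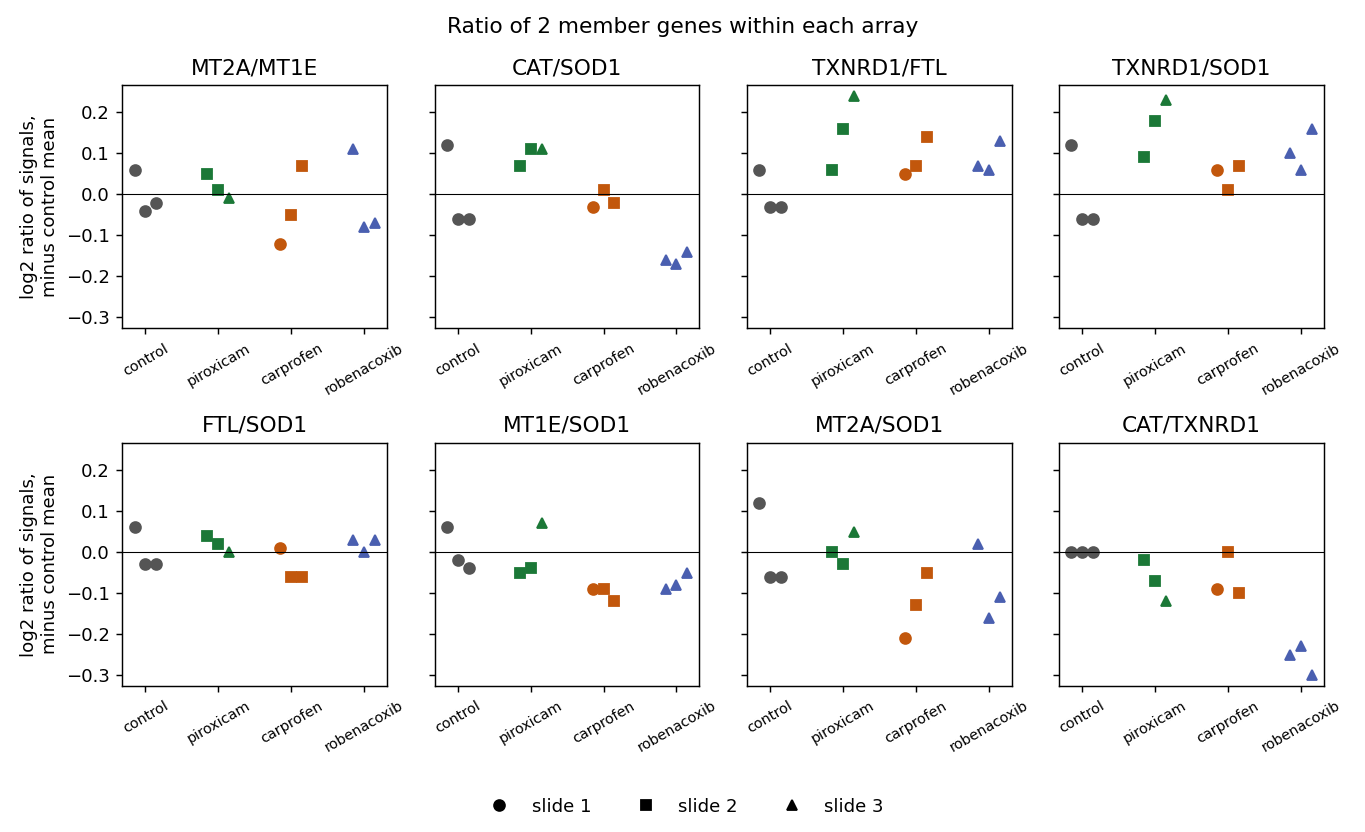
Log2 ratio of 2 genes on each array minus the control mean, for the 8 ratios computed, with each gene on its brightest probe. Points are arrays and marker shape is the slide. Robenacoxib sits apart in CAT/TXNRD1, at -0.30 to -0.23, and in CAT/SOD1, at -0.17 to -0.14.

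How alike genes were was measured by the root mean square (RMS) difference of their 12 log2 values, each gene centred on its own mean, a description over arrays that share groups and slides. Among the members FTL and SOD1 were closest (0.037), and CAT and TXNRD1 farthest apart (0.104). Over 606 other named genes, the nearest to MT1E were DIABLO (0.026), TMEM47 (0.026) and CLU, clusterin (0.036). Nearest to MT2 were ID3 (0.039), NFKBIL1 (0.052) and BGN, biglycan (0.055). FTL lay nearest to ANXA2 (0.038), RAC1 (0.044) and LOC403631 (0.044), and SOD1 to HMGB1 (0.041), AKT2 (0.046) and RAC1 (0.047). Nearest to CAT were PSMB9, an immunoproteasome subunit (0.029), and the lysosomal hydrolases SGSH (0.047) and FUCA1 (0.05). PSMB9 differed from control by -0.07, -0.16 and -0.21 with piroxicam, carprofen and robenacoxib, where CAT differed by -0.06, -0.17 and -0.25. Each gene was read on its brightest tested probe, and probes of the same gene did not always agree. The second PSMB9 probe gave -0.04, -0.05 and -0.16, and the second FUCA1 probe -0.16 with piroxicam, where the brightest gave 0.00. With carprofen the other TMEM47 probes gave -0.13, -0.02 and -0.08, where the brightest gave -0.23. TXNRD1 lay nearest to SLC35A3 (0.033), ARHGEF2 (0.033) and MYH9 (0.034).

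Few related genes could be named on the array. Of 31 genes for metallothioneins and the handling of zinc or copper, 7 were tested: with piroxicam 1 was higher and 2 lower, with carprofen 1 and 3, and with robenacoxib 0 and 3 (none higher at an unadjusted p below 0.05 either), at list medians of -0.06, -0.11 and -0.07. MT1E and MT2 are 2 of these 7. Against the spikes 2, 5 and 5 of the 7 were called higher and 0 lower, and with slide as a block 0, 3 and 0 were called. Over all tested probes, 16.1%, 19.5% and 12.6% were called lower relative to the array. Against the spikes, 40%, 75.3% and 67.8% of all probes were called higher. With slide as a block, 5.09%, 16.4% and 1.41% of all probes were called in either direction. ATOX1, a copper chaperone, stood at 3.73, 3.76 and 3.74 in controls and at 3.57, 3.54 and 3.54 with carprofen, a fall of 0.20 (SE 0.03, adjusted p = 0.00137). It also fell with robenacoxib, by 0.14 (SE 0.03, adjusted p = 0.012), but its dimmer probe gave 0.00 and -0.12 in the same comparisons, without a call. ATP7B, a copper-exporting ATPase, rose by 0.15 with piroxicam (SE 0.04, adjusted p = 0.0138) and by 0.12 with carprofen (SE 0.04, adjusted p = 0.0369), and its second probe gave 0.15 in both.

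Of 29 genes of iron storage, uptake and export, FTL included, 4 were tested; 2 were lower with piroxicam, 3 with carprofen and 1 with robenacoxib, and 0 were higher with each drug (medians -0.09, -0.14 and -0.07). These counts of 0 higher stayed 0 at an unadjusted p below 0.05. Against the spikes 1, 3 and 2 of the 4 were called higher and 0 lower, and with slide as a block 1, 1 and 0 were called. The shares of all tested probes called lower relative to the array were 16.1%, 19.5% and 12.6%. Those called higher against the spikes were 40%, 75.3% and 67.8%, and with the slide block 5.09%, 16.4% and 1.41% were called. SLC11A1, an iron and manganese transporter of phagosomes, fell with all 3 drugs, by 0.28, 0.11 and 0.23 (SE 0.03; adjusted p = 0.000242, 0.028 and 0.0011). Its dimmer probe gave -0.17, -0.01 and -0.05, and only the first was called. TFRC, the transferrin receptor, fell by 0.17 with carprofen (SE 0.05, adjusted p = 0.0243), and still did with slide as a block (-0.24).

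Of 57 genes of the NRF2, glutathione and thioredoxin systems, 7 were tested, FTL and TXNRD1 among them. There were 1 higher and 2 lower with piroxicam, 0 and 3 with carprofen, and 0 in either direction with robenacoxib, at medians of 0.02, -0.06 and -0.08; at an unadjusted p below 0.05, 0 were higher with carprofen, and 0 higher and 2 lower with robenacoxib. Against the spikes 4, 7 and 7 of the 7 were called higher and 0 lower, and with slide as a block 0 were called with each drug. Among all tested probes, 16.1%, 19.5% and 12.6% were called lower and 11.9%, 13.3% and 9.57% higher relative to the array. The shares called higher against the spikes were 40%, 75.3% and 67.8%, and with the slide block 5.09%, 16.4% and 1.41% were called. GPX1, the main cytosolic glutathione peroxidase, stood at 6.42 ± 0.01 (SD, n = 3) in controls and fell by 0.13 with both piroxicam and carprofen (SE 0.03, adjusted p = 0.0169 and 0.0155). Of its other 2 probes, 1 gave -0.07 with both drugs without a call and 1 gave -0.13 and -0.22 with a call. With robenacoxib GPX1 differed by -0.11 (adjusted p = 0.0503). The same 2 other probes gave -0.06 without a call and -0.16 with a call (adjusted p = 0.0177). GPX5, a dim probe at -3.71 ± 0.11 in controls, rose by 0.35 with piroxicam (SE 0.11, adjusted p = 0.0337), and its still dimmer second probe by 0.94 with piroxicam and 0.90 with carprofen. TXNRD3, a paralogue of TXNRD1, differed by -0.05, -0.02 and -0.08 and did not pass with any drug.

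Of 24 genes for the removal of superoxide and peroxide, 8 were tested, among them SOD1, CAT and GPX1. None was higher by limma relative to the array (0 with each drug), and 3, 5 and 2 were lower, at medians of -0.05, -0.13 and -0.08. At an unadjusted p below 0.05, 0, 1 and 0 were higher. Against the spikes 2, 8 and 7 of the 8 were called higher and 0 lower, and with slide as a block 0, 1 and 0 were called. For comparison, 16.1%, 19.5% and 12.6% of all tested probes were called lower relative to the array. The shares called higher against the spikes were 40%, 75.3% and 67.8%, and with the slide block 5.09%, 16.4% and 1.41% were called. MSRB1, a methionine sulfoxide reductase, fell by 0.15 with carprofen (SE 0.04, adjusted p = 0.00911) and by 0.13 with robenacoxib (SE 0.04, adjusted p = 0.0285), where its second probe gave -0.10 without a call. PON2, a paraoxonase, fell by 0.12 with carprofen (SE 0.03, adjusted p = 0.00699). SELENOW, a selenoprotein, fell by 0.14 with piroxicam (SE 0.04, adjusted p = 0.0172), where its second probe gave -0.06 without a call. Of the related genes named here, ATOX1 and TFRC with carprofen and SLC11A1 with piroxicam kept a call with slide as a block, ATOX1 with robenacoxib did not (-0.17, adjusted p = 0.317), and against the spikes all had values above 0 in the comparisons in which they fell, except SLC11A1 with piroxicam (-0.11).

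**Figure D4:**
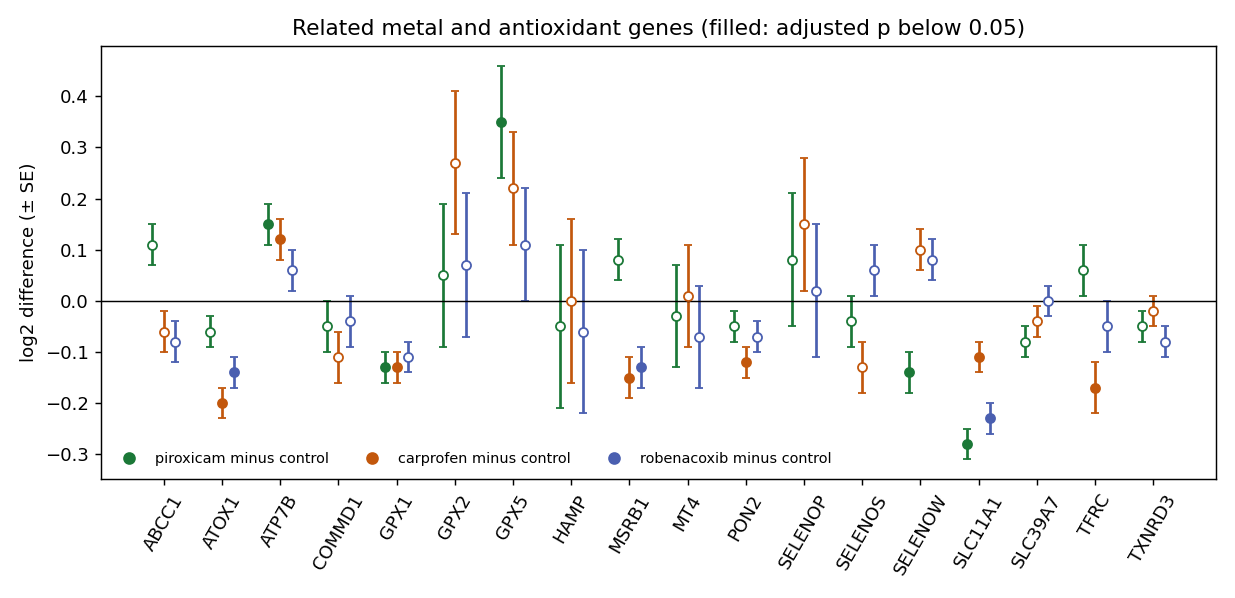
Log2 difference from control with limma's SE for the 18 related genes tested outside the 6, relative to the array's 75th percentile; filled points passed the test. ATP7B rose with piroxicam and carprofen, and SLC11A1 lies below 0 with all 3 drugs.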

How the data were processed

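RNA was hybridised to one-colour Agilent dog arrays, 3 for each of 4 groups. Per the file headers, Feature Extraction 10.7.3.1 made the deposited spot intensity and subtracted background inside each array; no scaling across arrays was applied to it. An alternative source was the value table the authors deposited, which by its range holds log2 intensities. The submitters' processing notes name limma 3.24.15 for it, and its other steps are not given in the sources.

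Processed signals were put on the log2 scale, each array's 75th percentile was subtracted, and flagged and control spots were left out. Of 43603 probes, 31996 passed as well above background on every one of 3 arrays in at least 1 group and were tested; 28346 were so on all 12 arrays. Between 66.2% and 80.1% of probes were above background per array. limma 3.58.1 (R 4.3.3; data.table, version 1.17.8) fitted all 12 arrays at once with 8 residual degrees of freedom, with two-sided tests adjusted by Benjamini-Hochberg within a comparison at 0.05. The median SE of a difference was 0.0526 in this fit, which leaves slide out. With slide as a block the median SE against control was 0.0915 for piroxicam, 0.0692 for carprofen and 0.115 for robenacoxib. The script was tested on simulated data.

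Names came from RefSeq (UU_Cfam_GSD_1.0, names only) through probe accessions and covered 3.01% of probes; MT2 matched MT2A by a synonym. For a gene with several tested probes, the brightest on average was used. The rule named the 6 members, the 3 nearest profiles of each, and up to 4 called genes of each list; the members and lists were chosen with earlier results of these data known. Other genes given with values (MT4, TXNRD3, marker genes) are neighbours, a paralogue or markers. Alternatives covered background correction, scaling, filter, slide, replicate number and left-out arrays. Normexp (offset 50) used the median spot signal, where the plan named the mean, because the mean is not in the files as used here. Promoter and protein sequences were not analysed here. Of the gene lists, 1 gene is not reported here.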

Additional observations from a re-analysis of the deposited data

How the results depend on the processing

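Alternatives are given in the order piroxicam, carprofen and robenacoxib against control, carprofen against piroxicam, robenacoxib against piroxicam and robenacoxib against carprofen. As reported, 8950, 10494, 7106, 11995, 8665 and 2609 probes were called in either direction, with 4, 6, 3, 4, 1 and 0 member genes lower and 0 higher. A change of sign was counted as a reversal where the reported or the alternative value was called; 65 of 1110 values reversed in that sense, 28 of them with spike-in scaling and 25 with spike-in scaling and the slide block together, and 98 more changed sign with neither value called. The cause was not tested for any of these.

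Scaling to spiked-in transcripts gave 13753, 24157 and 21836 probes against control and 1102 in the last comparison, with 0 member genes lower in all 6 and 1, 4, 4, 1 and 2 higher in the first 5. The reversed values were, with piroxicam, 0.01 (MT1E), 0.03 (MT2), 0.04 and 0.06 (FTL) and 0.02 (SOD1). With carprofen they were 0.09 (MT1E), 0.06 (MT2), 0.16 and 0.16 (FTL), 0.24, 0.32, 0.30 and 0.11 (TXNRD1), 0.19 (SOD1) and 0.18 (CAT). With robenacoxib they were 0.13, 0.12, 0.22 and 0.25 (MT1E, MT2, FTL), 0.29 and 0.11 (TXNRD1 probes 3 and 4), 0.21 (SOD1) and 0.05 (CAT), and for carprofen against piroxicam 0.08, 0.03, 0.05, 0.09 and 0.06 (MT1E, MT2, TXNRD1 probes 1 and 2, CAT). With slide as a block as well, a setting added after seeing the data, 1489 and 18857 probes were called with piroxicam and carprofen and 21 in the last comparison, with 0 member genes lower and 4, 1 and 2 higher for carprofen and robenacoxib against control and robenacoxib against piroxicam. The reversed values were then 0.06, 0.19, 0.17 and 0.09 with piroxicam (MT1E, FTL, SOD1) and 0.12, 0.01, 0.23, 0.23, 0.28, 0.34, 0.33, 0.21, 0.22 and 0.19 with carprofen (MT1E, MT2, FTL, TXNRD1, SOD1, CAT). With robenacoxib they were 0.17, 0.07, 0.47, 0.41, 0.30 and 0.14 (MT1E, MT2, FTL, TXNRD1 probes 3 and 4, CAT), and for carprofen against piroxicam 0.07, 0.05, 0.03, 0.07 and 0.03.

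Slide as a block gave 1629, 5232, 451 and, last, 81 probes, with 0, 3 and 0 member genes lower against control and 1 higher between robenacoxib and piroxicam (FTL); FTL with piroxicam turned to 0.02. Within slides, 1, 4554 and 0 probes were called (carprofen against control on slide 1, carprofen and robenacoxib against piroxicam on slides 2 and 3) and 0 member genes, against 3, 2 and 1 lower at an unadjusted p below 0.05. Normexp with the 75th percentile gave 5753, 5447, 4569, 6732, 4657 and 210 probes, with 0, 3 and 0 member genes lower with piroxicam, with carprofen and between them, and SOD1 with piroxicam at 0.03. Quantile normalization left 1, 3 and 2 there and 1 (CAT) in the last comparison, with TXNRD1 at 0.01 and 0.09 (probes 1 and 2) with carprofen. Normexp with quantile normalization and the authors' table gave 6820 and 6472 probes with carprofen, 662 and 555 in the last comparison, and 0, 2 and 0 member genes each; FTL and SOD1 with piroxicam stood at 0.02 and 0.10 and at 0.01 and 0.10, SOD1 with carprofen at 0.09 in both, and TXNRD1 between carprofen and piroxicam at 0.01 and 0.02. On each gene's brightest probe, both kept the calls of MT1E and MT2 with carprofen and of MT2 and CAT with robenacoxib. No other reported member call against control was kept on those probes. Of the other probes, TXNRD1 probe 4 kept both its calls and FTL probe 2 lost both (-0.03 and -0.04). With piroxicam TXNRD1 probe 4 was also called lower (-0.29) and probe 2 higher (0.16) in both. No filter left 2 member genes with piroxicam, 2 between carprofen and piroxicam, and 1398 probes last. Fits of only the compared groups left 2, 1 and 210. Without control 3 and piroxicam 3, which an earlier look at these data found to stand apart, 4780, 4665 (robenacoxib) and 1737 probes remained called, with 1 member gene with piroxicam and 1 between carprofen and piroxicam.

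Leaving out 1 array of the groups compared gave 6454 to 7694, 8070 to 10478, 4626 to 5786, 10237 to 11374, 6868 to 7407 and 1156 to 2301 probes. Member genes lower were then 1 to 3, 4 to 6, 2 to 3, 1 to 3, 1 to 1 and 0 to 0. Same-numbered arrays deviated together with correlations from -0.45 to 0.20, so the numbers were not taken to pair the arrays; the replicate block left 2 member genes lower with piroxicam, 2 between carprofen and piroxicam, and 1375 probes in the last comparison. Within slide 1, where 1 carprofen array faced 3 controls, MT1E and MT2 differed by -0.21 and -0.33. The fit with slide as a block gave the same estimates from the same carprofen array, with a spread taken from all 12 arrays. The calls of both genes with carprofen were lost in both spike-in settings and within slide 1. They held in the other alternatives, slide as a block among them (adjusted p from 0.000127 to 0.153 and from 0.00131 to 0.937 over all). That of CAT with robenacoxib was lost with slide as a block and in both spike-in settings (adjusted p from 8.01e-05 to 0.345).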
